A study of Nicotiana tabacum with 16 samples.

Results

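Of 63697 tobacco gene models counted in roots, 23 were silent in exactly 1 of 4 nearly isogenic genotypes and expressed in the other 3. A gene model was taken as silent in a genotype where every library had under 0.25 CPM (the count times 1000000 over the column total). It was taken as expressed in the others where each genotype had a mean of 1 CPM or more. The members were chosen by these CPM values alone, outside 4 serial ranges, 1 each in ID groups 11, 18, 7 and 19. An ID group is the number after Ntab in the identifier, and the serial is the number after g. By silent genotype, myc2a had 9 of the 23, nic1 nic2 had 7, nic1 nic2 myc2a had 5 and K326 had 2. A further 3 gene models with this pattern lay inside the left-out range of ID group 11 and were all silent in myc2a, Ntab11g018170-1.1, Ntab11g018440-1.1 and Ntab11g019640-1.1. The choice used the counts of all 16 libraries, so the silence and the mean of 1 CPM or more elsewhere are descriptions and carry no test here.

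The cultivar K326 was sampled with 4 libraries; the line K326 nic1/nic2 had 3 libraries, the line K326 myc2a had 5, and the line with all these alleles, K326 nic1/nic2/myc2a, had 4. The name K326 is left out of the 3 line names from here on. Plants of all genotypes were pot-grown in a greenhouse and topped, and roots were collected 18 h later. Roots were taken plant by plant, but no label ties a library to a plant, so p-values measure only the spread between these libraries, which may be technical. In such bulk samples, fewer cells of a type and less RNA per cell cannot be told apart. Total counts were 32.2 M to 40.9 M per library, with 71.8 M in K326 replicate 2, so that 0.25 CPM stood for 8.04 to 18.0 counts. The labels do not give how the lines were bred, and the root label could not be checked with marker genes because the identifiers carry no gene names.

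Nicotine is made in tobacco roots and moved to the leaves, and topping stimulates its synthesis. The Nic loci control the alkaloid level, with a cluster of ERF transcription factor genes at Nic2, and MYC2a belongs to the bHLH factors that act in the jasmonate response. Nearly isogenic lines share most of the genome of the recurrent parent and can differ from it at places other than the selected alleles. Tobacco is an allotetraploid, so many genes have a close copy from the other ancestral genome. Counts do not tell apart a gene model that is not transcribed from one to which no reads were assigned. Because no name or function could be paired with any of the 23 identifiers, their roles are not given, and the results are ordered by the silent genotype and by neighbouring serial numbers. Serials give an order of identifiers, and no chromosome position is read from them.

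The 23 gene models fell into 3 runs of neighbours with 13 gene models and 10 that stood alone. A run joined gene models silent in the same genotype with serial numbers at most 100 apart. Each line other than K326 had 1 run, in ID group 24 for nic1 nic2 (5 gene models), ID group 8 for myc2a (5) and ID group 19 for nic1 nic2 myc2a (3). K326 had none. Of the 23 gene models, 9 had no count at all in the silent genotype, 4 of them in myc2a, 3 in nic1 nic2 myc2a and 2 in nic1 nic2.

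**Figure D1:**
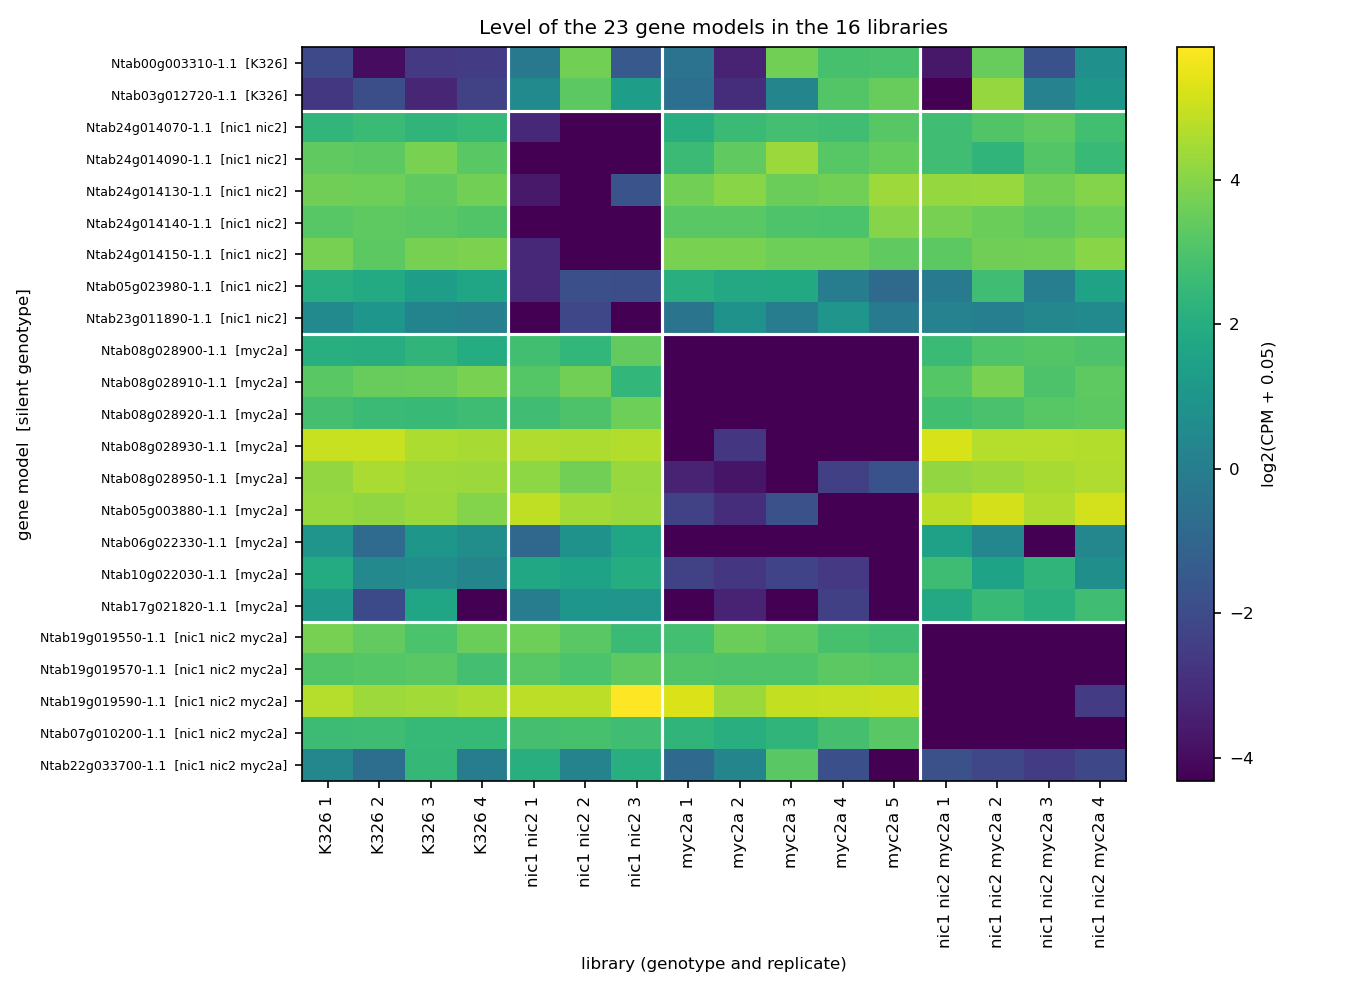
Level of each of the 23 gene models (rows, with the silent genotype in brackets) in each of the 16 libraries (columns), as log2(CPM + 0.05). The dark blocks are the silent genotypes. Gene models of ID groups 24, 8 and 19 are evenly bright in all other libraries, whereas both gene models silent in K326 vary from dark to bright between libraries of the other genotypes.

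In nic1 nic2 roots, the 5 gene models of the run in ID group 24 (serials 14070 to 14150) together had 0.151, 0 and 0.249 CPM in replicates 1, 2 and 3, from 13 counts in all. The same sum was 50.4, 47.6, 51.7 and 50.7 CPM in the K326 libraries, 46.3, 56.1, 58.9, 48.2 and 66.4 CPM in myc2a, and 54.9, 57.0, 54.0 and 56.1 CPM in nic1 nic2 myc2a. The 13 libraries of the other genotypes thus lay between 46.3 and 66.4 CPM, and nic1 nic2 myc2a, whose label also names nic1 and nic2, was at 55.5 ± 1.32 CPM (SD, n = 4) against 50.1 ± 1.74 in K326 (n = 4).

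Within this run, Ntab24g014090-1.1 was at 0 in the 3 nic1 nic2 libraries. It was at 10.2, 9.67, 13.8 and 9.30 CPM in K326, at 6.05, 10.3, 20.0, 9.21 and 10.9 CPM in myc2a, and at 6.58, 4.91, 8.63 and 5.75 CPM in nic1 nic2 myc2a. With 3 counts per library as the limit that a count of 0 allows, the mean of the other genotypes was at least 106-fold higher than in nic1 nic2; this limit and those below cover counting error only. Low counts were more often even than odd (61.9% even), so counts may not be independent; with a limit of 6 counts per library this bound is 52.8-fold, and those given below for other gene models are 35.6 to 63.9-fold. Ntab24g014140-1.1 was also at 0 in nic1 nic2, with 8.52 to 9.99 CPM in K326, 7.71 to 15.8 in myc2a and 9.88 to 13.6 in nic1 nic2 myc2a, at least 115-fold higher on average. The other 3 gene models of the run kept a few counts: Ntab24g014070-1.1 and Ntab24g014150-1.1 had 2 counts each, both in replicate 1, and Ntab24g014130-1.1 had 9, of which 8 came from replicate 3 (0.249 CPM).

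The silence in ID group 24 reached beyond the 5 gene models that met both thresholds. Between Ntab24g014030-1.1 and Ntab24g014160-1.1 lay 12 consecutive gene models, of which 8 had 0.5 CPM or more elsewhere. In nic1 nic2 these 8 had at most 0.643% of the mean of the other genotypes, and 4 of them were at 0 in each library. The other 4 had under 0.5 CPM as the mean of the other genotypes and were also at 0 in nic1 nic2. Among these, Ntab24g014080-1.1, Ntab24g014110-1.1 and Ntab24g014120-1.1 had only 0.0376 to 0.09 CPM elsewhere. A count of 0 in nic1 nic2 allows about 0.0899 CPM, so they were too weak to judge. Ntab24g014050-1.1, the strongest of the 12, had 90.2, 88.4, 52.0 and 69.4 CPM in K326 but 0.181, 0.229 and 0.373 CPM in nic1 nic2, just above the threshold of silence in 1 library. Ntab24g014040-1.1 had no counts in nic1 nic2 and missed the level threshold with a mean of 0.969 CPM in myc2a.

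The levels returned at once on both sides. The stretch was ended on each side by the nearest gene model at 1 CPM or more elsewhere and 50% or more of that level. Ntab24g014030-1.1, next to the first of the 12, was at 8.43 ± 1.12 CPM in nic1 nic2 (SD, n = 3), 77.4% of the mean of the other genotypes, and Ntab24g014160-1.1, next to the last, was at 4.41 ± 1.76 CPM, 142%. By this choice neither value could be near the levels of under 1% between them, but no gene model with an intermediate level was seen.

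**Figure D2:**
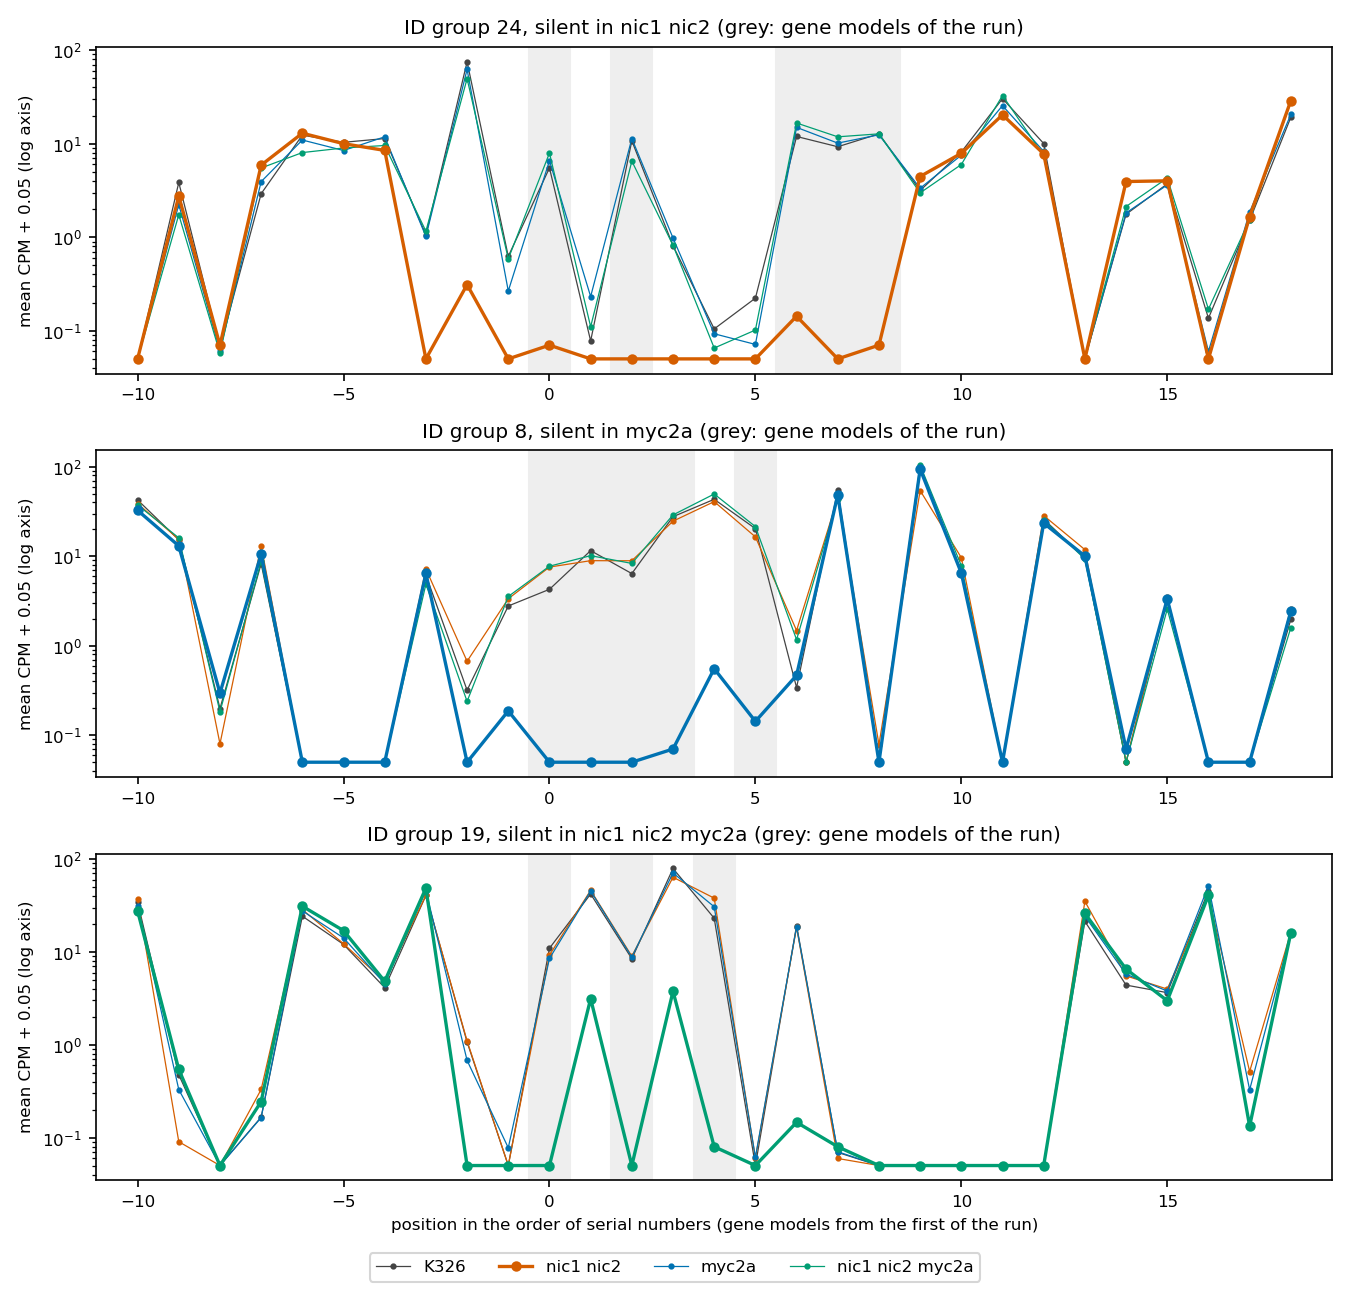
Mean CPM + 0.05 (log axis) of consecutive gene models around the 3 runs, by genotype, against their position counted from the first gene model of the run; grey marks gene models of the run. In each panel the silent genotype (thick line) leaves the other 3 for a short stretch and lies with them again at the nearest expressed gene models on both sides, such as Ntab24g014030-1.1 with 8.43 CPM and Ntab24g014160-1.1 with 4.41 CPM in nic1 nic2. These neighbours were chosen to end the stretch as the first at 50% or more of the other genotypes.

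The remaining 2 gene models silent in nic1 nic2 stood alone and were weaker. Ntab05g023980-1.1 had 0.0604, 0.229 and 0.218 CPM in nic1 nic2, against 4.06, 3.70, 2.44 and 3.06 CPM in K326. It was uneven in the other genotypes, with 4.07, 3.45, 3.58, 0.904 and 0.524 CPM in myc2a and 0.834, 6.50, 0.979 and 2.82 CPM in nic1 nic2 myc2a. Ntab23g011890-1.1 had 6 counts in nic1 nic2, all in replicate 2 (0.172 CPM), and 1.03 to 1.98 CPM in K326, 0.703 to 1.92 in myc2a and 0.987 to 1.39 in nic1 nic2 myc2a. Its mean of 1.18 CPM in nic1 nic2 myc2a was the lowest among the 23 gene models for an expressed genotype.

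In myc2a roots, the 5 gene models of the run in ID group 8 (serials 28900 to 28950) summed to 0.0502, 0.126, 0, 0.141 and 0.248 CPM in replicates 1 to 5, from 21 counts. They summed to 70.4, 76.0, 66.9 and 66.8 CPM in K326, 63.8, 62.6 and 72.4 CPM in nic1 nic2, and 77.3, 75.5, 74.5 and 78.0 CPM in nic1 nic2 myc2a. All 5 myc2a libraries were low, and the 11 other libraries lay between 62.6 and 78.0 CPM. The nic1 nic2 myc2a libraries, which also carry myc2a by their label, were at 76.4 ± 1.62 CPM (SD, n = 4), above the K326 mean of 70.0 ± 4.30 (n = 4).

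A set of 3 neighbours in this run was at 0 in each of the 5 myc2a libraries. Ntab08g028910-1.1 had 9.40, 11.1, 11.7 and 13.8 CPM in K326, 8.82, 12.6 and 5.19 in nic1 nic2 and 8.82, 13.8, 8.02 and 9.88 in nic1 nic2 myc2a, at least 128-fold above the limit in myc2a on average. Ntab08g028920-1.1 had 5.74 to 7.20 CPM in K326, 6.47 to 12.0 in nic1 nic2 and 6.70 to 9.67 in nic1 nic2 myc2a (at least 98.3-fold). Ntab08g028900-1.1 had 4.11, 3.93, 4.93 and 3.89 CPM in K326, 6.71, 5.21 and 10.6 in nic1 nic2 and 6.08, 8.22, 8.54 and 7.95 in nic1 nic2 myc2a (at least 81.4-fold). For Ntab08g028900-1.1, every nic1 nic2 and nic1 nic2 myc2a library was thus above every K326 library. A separation the other way was seen in Ntab24g014090-1.1, with nic1 nic2 myc2a below K326. The share of all gene models with such a separation was not determined, so nothing is read from it.

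Ntab08g028930-1.1, the strongest gene model of the run, had 23.0 to 31.7 CPM in K326, 24.0 to 25.2 in nic1 nic2 and 25.7 to 37.7 in nic1 nic2 myc2a. In myc2a it had 4 counts, all in replicate 2 (0.101 CPM). Ntab08g028950-1.1 was at 0.0502, 0.0252, 0, 0.141 and 0.248 CPM in myc2a, so that replicate 5 lay just under the threshold, and at 12.7 to 24.8 CPM in the other libraries. Of the 21 counts of the run in myc2a, 17 fell on this last gene model.

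With the ends set by the rule given above, 9 gene models lay between the expressed neighbours Ntab08g028870-1.1 and Ntab08g028970-1.1. Of these, 8 had 0.5 CPM or more in the other genotypes. In myc2a, 7 of these 8 were at or below 10% of the mean of the others. Ntab08g028940-1.1, inside the run, had 39.3 to 46.9 CPM in K326 and 0.627, 0.126, 0.0265, 1.24 and 0.496 CPM in myc2a, 1.13% of the mean of the others, and failed the rule for these residual counts. Ntab08g028890-1.1 was at 4.32%. Ntab08g028960-1.1, the last of the 9, was the exception with 44.1%, which rested on myc2a replicate 2. Ntab08g028960-1.1 had 0.0502, 1.82, 0, 0.0565 and 0.165 CPM in myc2a replicates 1 to 5. It was uneven in the other genotypes too, with 0.0979 to 0.571 CPM in K326, 0.401 to 3.05 in nic1 nic2 and 0.0593 to 2.77 in nic1 nic2 myc2a. The expressed neighbours themselves were at 6.37 ± 1.18 CPM (106% of the others) and 48.5 ± 8.16 CPM (102%) in myc2a (SD, n = 5).

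A further 4 gene models silent in myc2a stood alone in ID groups 5, 6, 10 and 17. Ntab05g003880-1.1 was strong in every library of the other genotypes. It had 0.151, 0.0756, 0.238, 0 and 0 CPM in myc2a, against 19.3, 17.9, 19.8 and 15.6 CPM in K326, 29.3, 21.4 and 19.6 in nic1 nic2 and 27.8, 36.8, 25.0 and 35.7 in nic1 nic2 myc2a. Its direct neighbours in serial order were expressed in myc2a, Ntab05g003870-1.1 with 58.8 ± 14.6 CPM (105% of the others; SD, n = 5) and Ntab05g003890-1.1 with 61.5 ± 17.1 CPM (164%). A single gene model was therefore low here, between neighbours that were not.

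The other 3 lone gene models of myc2a had low and uneven levels. Ntab10g022030-1.1 had 0.151, 0.101, 0.159, 0.113 and 0 CPM in myc2a and 1.17 to 6.34 CPM in the other 11 libraries. Ntab06g022330-1.1 had no count in any myc2a library, but nic1 nic2 myc2a replicate 3 also had none, beside 2.80, 1.25 and 1.25 CPM in the other libraries of that genotype. Ntab17g021820-1.1 had 7 counts in myc2a and was also at 0.195 and 0 CPM in K326 replicates 2 and 4, against 2.15 and 3.16 CPM in K326 replicates 1 and 3. For Ntab06g022330-1.1 and Ntab17g021820-1.1 the rule held on the means of the expressed genotypes, not on every library.

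In nic1 nic2 myc2a roots, the 3 gene models of the run in ID group 19 (serials 19550 to 19590) summed to 0, 0, 0 and 0.119 CPM, from 4 counts. The sum was 47.9, 39.8, 38.8 and 42.8 CPM in K326, 49.5, 45.4 and 73.2 in nic1 nic2, and 55.3, 39.6, 48.2, 47.6 and 48.1 in myc2a. The rule of choice itself set the silence in nic1 nic2 myc2a and a mean of 1 CPM or more in the lines with nic1 nic2 alone and with myc2a alone. That these groups did not overlap with nic1 nic2 myc2a is therefore a description.

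Ntab19g019550-1.1 and Ntab19g019570-1.1 had no counts in the 4 nic1 nic2 myc2a libraries. Ntab19g019570-1.1 had 8.46, 8.83, 9.37 and 6.90 CPM in K326, 9.04, 7.81 and 9.98 in nic1 nic2 and 8.48, 8.09, 8.26, 9.77 and 9.12 in myc2a, at least 97.3-fold above the limit. Ntab19g019550-1.1 ranged from 6.09 to 13.5 CPM over the 12 expressed libraries (at least 107-fold). Ntab19g019590-1.1 had 20.4 to 26.0 CPM in K326, 28.3, 28.4 and 57.2 in nic1 nic2 and 19.9 to 39.9 in myc2a, with the 4 counts of the run in nic1 nic2 myc2a replicate 4.

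**Figure D3:**
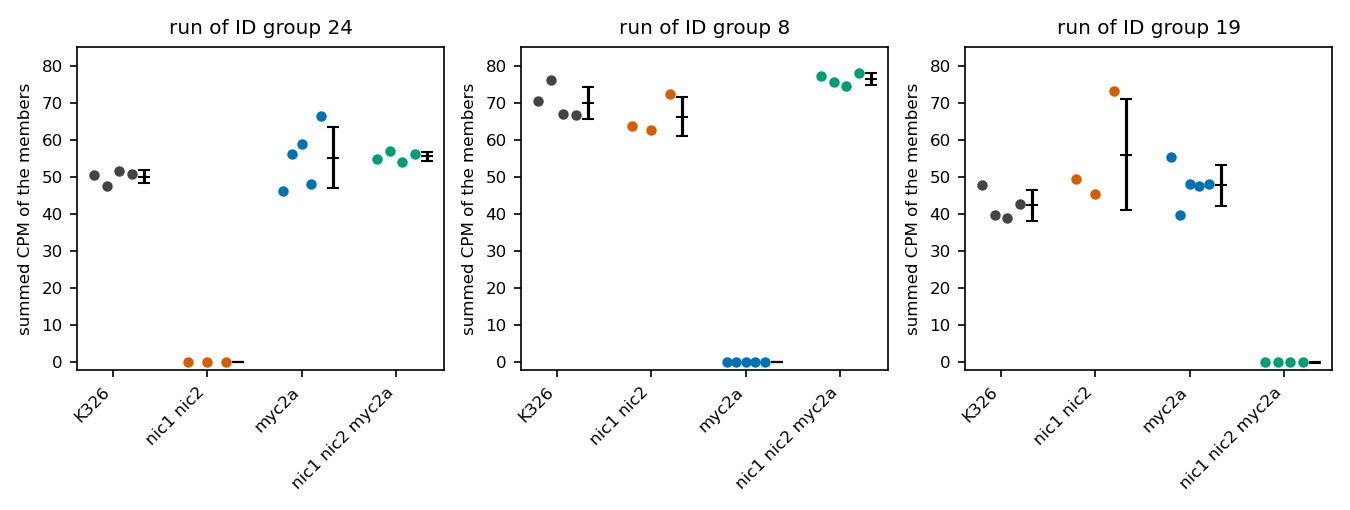
Summed CPM of the members of each run in each library (points), with mean and SD per genotype beside them (n = 4 for K326, 3 for nic1 nic2, 5 for myc2a and 4 for nic1 nic2 myc2a). In each run 1 genotype lies at or near 0, at most 0.249 CPM, and all other libraries lie at 38.8 CPM or more.

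The stretch around this run was ended by the same rule. Its 15 gene models lay between the expressed neighbours Ntab19g019520-1.1 (48.6 ± 1.41 CPM in nic1 nic2 myc2a, 115% of the others; SD, n = 4) and Ntab19g019680-1.1 (25.9 ± 1.03 CPM, 96.4%). All 7 of them with 0.5 CPM or more elsewhere, from serial 19530 to 19610, were at or below 6.94% of the others. Ntab19g019610-1.1 had 17.0 to 22.3 CPM in K326 and 0, 0.0581, 0 and 0.326 CPM in nic1 nic2 myc2a, and missed the rule through replicate 4. A pair inside the run kept counts in every library: Ntab19g019560-1.1 had 2.47, 2.87, 4.16 and 2.82 CPM in nic1 nic2 myc2a against 40.1 to 47.0 in K326, and Ntab19g019580-1.1 had 4.71, 3.95, 3.67 and 2.52 CPM against 74.3 to 84.3. Whether close copies elsewhere in the genome share reads with this pair was not analysed here.

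Both other gene models silent in nic1 nic2 myc2a stood alone. Ntab07g010200-1.1 had no counts in that genotype, with 6.13, 6.43, 5.51 and 5.60 CPM in K326, 7.13, 7.36 and 6.56 in nic1 nic2 and 4.99, 4.19, 4.93, 7.09 and 9.40 in myc2a (at least 71.1-fold). Its neighbour Ntab07g010210-1.1 was at 20.6 ± 0.653 CPM in nic1 nic2 myc2a, 104% of the others (SD, n = 4). Ntab22g033700-1.1 had 0.238, 0.174, 0.122 and 0.178 CPM in nic1 nic2 myc2a but was as low in myc2a replicates 4 and 5 (0.226 and 0 CPM), while myc2a replicate 3 had 9.32 CPM. The silence of Ntab22g033700-1.1 was thus not set apart library by library, unlike that of Ntab07g010200-1.1.

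K326 had 2 silent gene models, both uneven between like libraries of the other genotypes. Ntab03g012720-1.1 had 0.107, 0.223, 0.0554 and 0.147 CPM in K326, 1.36, 9.73 and 2.49 in nic1 nic2, 0.602, 0.0756, 1.17, 8.70 and 11.2 in myc2a and 0, 18.5, 1.07 and 2.02 in nic1 nic2 myc2a. Ntab00g003310-1.1 had 0.188, 0.0139, 0.111 and 0.122 CPM in K326, 0.816, 12.7 and 0.311 in nic1 nic2, 0.678, 0.0504, 12.6, 7.26 and 7.58 in myc2a and 0.0298, 11.0, 0.245 and 1.66 in nic1 nic2 myc2a. In both gene models, nic1 nic2 replicate 2, myc2a replicates 4 and 5 and nic1 nic2 myc2a replicate 2 were high, and myc2a replicate 2 and nic1 nic2 myc2a replicate 1 were as low as K326. Neither was at 0 in any K326 library, and the groups overlapped.

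Most lone gene models varied more between like libraries than those in runs. The median coefficient of variation within the expressed genotypes lay between 12.1 and 26.2% for the 13 gene models in runs, with a median of 17.0%. Over all gene models at 1 CPM or more in the same genotypes, 35977 to 36116 of them depending on the silent genotype, the median was 16.2 to 18.7%, the 10th percentile 7.99 to 9.11% and the 90th percentile 35.6 to 40.4%. Among the 10 lone gene models it ranged from 7.35% (Ntab07g010200-1.1) to 152% (Ntab00g003310-1.1), with a median of 59.5%. The lone gene models were also weaker, with a median level of 2.99 CPM in the expressed genotypes against 10.2 CPM in runs, and the part of the low level in the spread was not tested. Of the 10, 5 had at least 1 library under 0.25 CPM in a genotype counted as expressed, namely Ntab00g003310-1.1, Ntab03g012720-1.1, Ntab06g022330-1.1, Ntab17g021820-1.1 and Ntab22g033700-1.1, and 0 of the 13 in runs did.

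**Figure D4:**
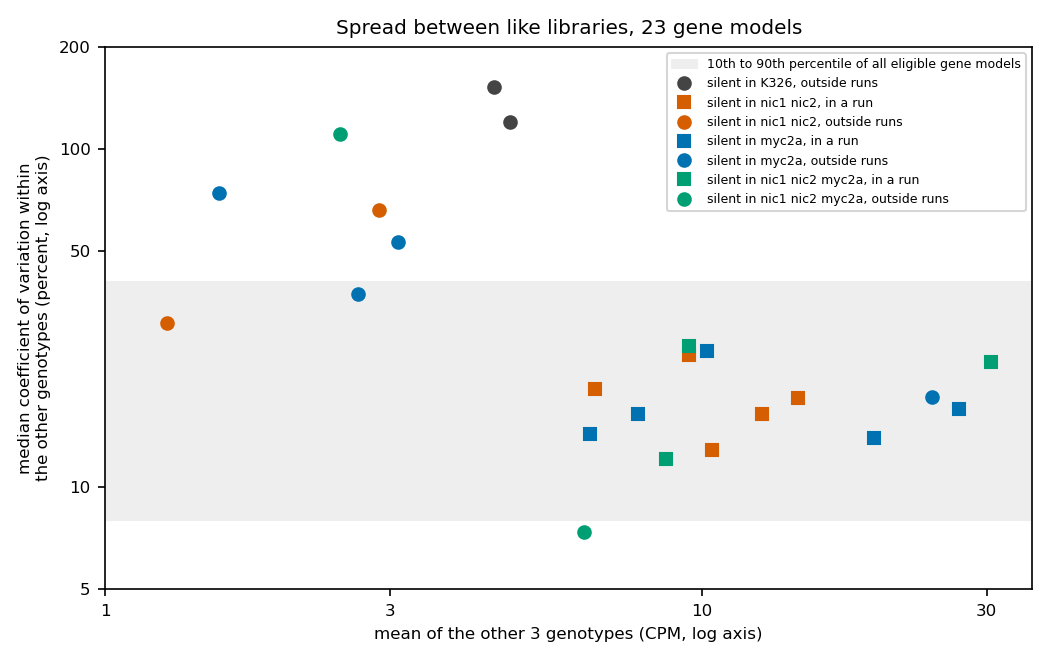
Median coefficient of variation within the expressed genotypes (percent, log axis) against the mean of these genotypes (CPM, log axis) for the 23 gene models; squares lie in runs, circles stand alone, and grey spans 7.99 to 40.4%, the lowest 10th to the highest 90th percentile of all gene models at 1 CPM or more. All squares lie inside the grey band, and 6 circles lie above it and 1 below.

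The expressed gene models nearest to lone members were also expressed in the silent genotype. They lay 1 to 6 places away in serial order, apart from the one before Ntab10g022030-1.1, which was 15 places away. Gene models in between had under 1 CPM in the other genotypes and were too weak to judge. The nearest gene model on each side with 1 CPM or more in the other genotypes, 20 in all, was at 56.8 to 164% of the mean of the others in the silent genotype, with a median of 102%. To test the surroundings, the 5 nearest expressed gene models on each side of each member silent in a line other than K326 were taken. They were compared between that line and K326 by edgeR's quasi-likelihood test over all 43009 gene models that passed the filter on low counts. The surroundings of the members silent in K326 were not tested. In nic1 nic2, 1 of 30 was called at an adjusted p of 0.05, against 0.918% of all gene models in that comparison and 1.03% of those at 1 CPM or more in the other genotypes. In myc2a, 2 of 51 were called against 0.17% and 0.183%. In nic1 nic2 myc2a, 3 of 32 were called against 0.295% and 0.31%. These shares of all gene models moved with single libraries. They ranged from 0.397% (without nic1 nic2 replicate 3) to 1.74% (without myc2a replicate 5) for nic1 nic2, from 0.0443% (without K326 replicate 2) to 1.01% (without myc2a replicate 1) for myc2a, and from 0.156% (without K326 replicate 1) to 0.993% (without nic1 nic2 myc2a replicate 3) for nic1 nic2 myc2a.

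All 6 called gene models fell, and all lay inside the stretches described above. The ends of these stretches were drawn from the same values, so that low neighbours of a run lay inside by construction. Ntab24g014050-1.1 had a log2 fold change of -8.25 in nic1 nic2 (SE 0.48; edgeR adjusted p = 4.48e-08). Ntab08g028890-1.1 and Ntab08g028940-1.1 had log2 fold changes of -4.29 and -6.45 in myc2a (edgeR adjusted p = 0.000373 and 1.3e-07). In nic1 nic2 myc2a, Ntab19g019560-1.1, Ntab19g019580-1.1 and Ntab19g019610-1.1 had log2 fold changes of -3.82, -4.46 and -7.63 (edgeR adjusted p = 2.64e-10, 1.87e-11 and 3.94e-08).

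Outside these stretches edgeR called 0 of 29 flanking gene models in nic1 nic2, 0 of 49 in myc2a and 0 of 29 in nic1 nic2 myc2a. Beside the runs, the absence of strongly lowered gene models followed largely from how the stretches were ended. At an unadjusted p under 0.05 the counts were 8 of 29, 4 of 49 and 7 of 29, where 18.0%, 5.21% and 14.1% of all gene models passed. DESeq2 called 1, 0 and 2, against 4.67%, 0.593% and 2.52% of all gene models with an adjusted p, and limma-voom called 0 in each, against 0.874%, 0.226% and 0.335%. The median level of these flanking gene models was 106, 100 and 104% of the mean of the other genotypes. Against the edgeR backgrounds given above, counts of 0 among 29 to 49 gene models do not set the surroundings apart from other gene models. The shares at an unadjusted p lay above their backgrounds in each line, and that of DESeq2 only in nic1 nic2 myc2a. These excesses were not tested.

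The differences among the genotypes in which a gene model was expressed were not used to choose it, beyond the floor of 1 CPM, and were tested in the same fit. All 23 gene models passed the filter on low counts. Backgrounds are given as the share of all gene models called and, after it, of those at 1 CPM or more in the 3 genotypes that express the member. Of the 7 gene models silent in nic1 nic2, edgeR called 0 between myc2a and K326 (0.17% and 0.138%), between nic1 nic2 myc2a and K326 (0.295% and 0.282%) and between nic1 nic2 myc2a and myc2a (0.358% and 0.313%). Of the 9 silent in myc2a, it called 0 between nic1 nic2 and K326 (0.918% and 1.0%), nic1 nic2 myc2a and K326 (0.295% and 0.284%) and nic1 nic2 myc2a and nic1 nic2 (0.405% and 0.411%). Of the 5 silent in nic1 nic2 myc2a, it called 0 between nic1 nic2 and K326 (0.918% and 1.0%), myc2a and K326 (0.17% and 0.138%) and nic1 nic2 and myc2a (1.05% and 1.06%).

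For the 2 silent in K326 it also called 0, between nic1 nic2 myc2a and nic1 nic2 (0.405% and 0.41%), nic1 nic2 myc2a and myc2a (0.358% and 0.313%) and nic1 nic2 and myc2a (1.05% and 1.07%). Comparisons with K326 share its 4 libraries. With so few gene models, counts of 0 cannot be set apart from these backgrounds. At an unadjusted p under 0.05 in at least 1 comparison were 2 of the 9 silent in myc2a, 1 of the 7 silent in nic1 nic2, 1 of the 5 silent in nic1 nic2 myc2a and 0 of the 2 silent in K326. In single comparisons 5.21% (myc2a minus K326) to 18.0% (nic1 nic2 minus K326) of all gene models passed this p, with 14.1% for nic1 nic2 myc2a minus K326, 13.2% for nic1 nic2 myc2a minus nic1 nic2, 11.4% for nic1 nic2 myc2a minus myc2a and 16.3% for nic1 nic2 minus myc2a. The share of all gene models that passed in at least 1 of several comparisons would be higher and was not determined. The counts of members are therefore not read against these single shares. DESeq2 called 2 of the 9 silent in myc2a, both between nic1 nic2 myc2a and K326 (2.52% of all gene models), and 0 of the others. Its shares were 4.67%, 0.593%, 1.51%, 1.8% and 3.99% in the comparisons nic1 nic2 minus K326, myc2a minus K326, nic1 nic2 myc2a minus nic1 nic2, nic1 nic2 myc2a minus myc2a and nic1 nic2 minus myc2a. In the same order limma-voom called 0.874%, 0.226%, 0.344%, 0.474% and 1.11%, with 0.335% for nic1 nic2 myc2a minus K326, and it called 0 of the 23 members.

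The differences with an unadjusted p under 0.05 were in 4 gene models. Ntab08g028900-1.1 had log2 differences from K326 of 0.74 ± 0.25 (SE) in nic1 nic2 roots and of 0.82 ± 0.23 in nic1 nic2 myc2a roots (edgeR adjusted p = 0.154 and 0.156). DESeq2 called the difference in nic1 nic2 myc2a (adjusted p = 0.0415; 0.0415 to 0.401 over all alternatives). Ntab05g003880-1.1 was at 31.3 ± 5.81 CPM in nic1 nic2 myc2a against 18.2 ± 1.87 in K326 (SD, n = 4 each). Its log2 difference was 0.74 ± 0.28 (edgeR adjusted p = 0.239), called by DESeq2 (adjusted p = 0.0293; 0.0293 to 0.529 over all alternatives).

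Ntab24g014090-1.1 had log2 differences of -0.78 ± 0.30 between nic1 nic2 myc2a and K326 and -0.83 ± 0.28 between nic1 nic2 myc2a and myc2a (edgeR adjusted p = 0.248 and 0.259), while Ntab24g014070-1.1 of the same run had differences of 0.48 ± 0.26 and 0.26 ± 0.24 (edgeR adjusted p = 0.413 and 0.753). Ntab19g019590-1.1 had a difference of 0.62 ± 0.28 between nic1 nic2 and K326 (edgeR adjusted p = 0.251). Among gene models above that p, Ntab17g021820-1.1 had the widest difference, 1.84 ± 0.88 between nic1 nic2 myc2a and K326, with 4.97 ± 1.38 against 1.38 ± 1.53 CPM (SD, n = 4 each; edgeR adjusted p = 0.36). In the steady gene models of the runs, SEs of 0.15 to 0.30 left differences of about the size of those above undecided.

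**Figure D5:**
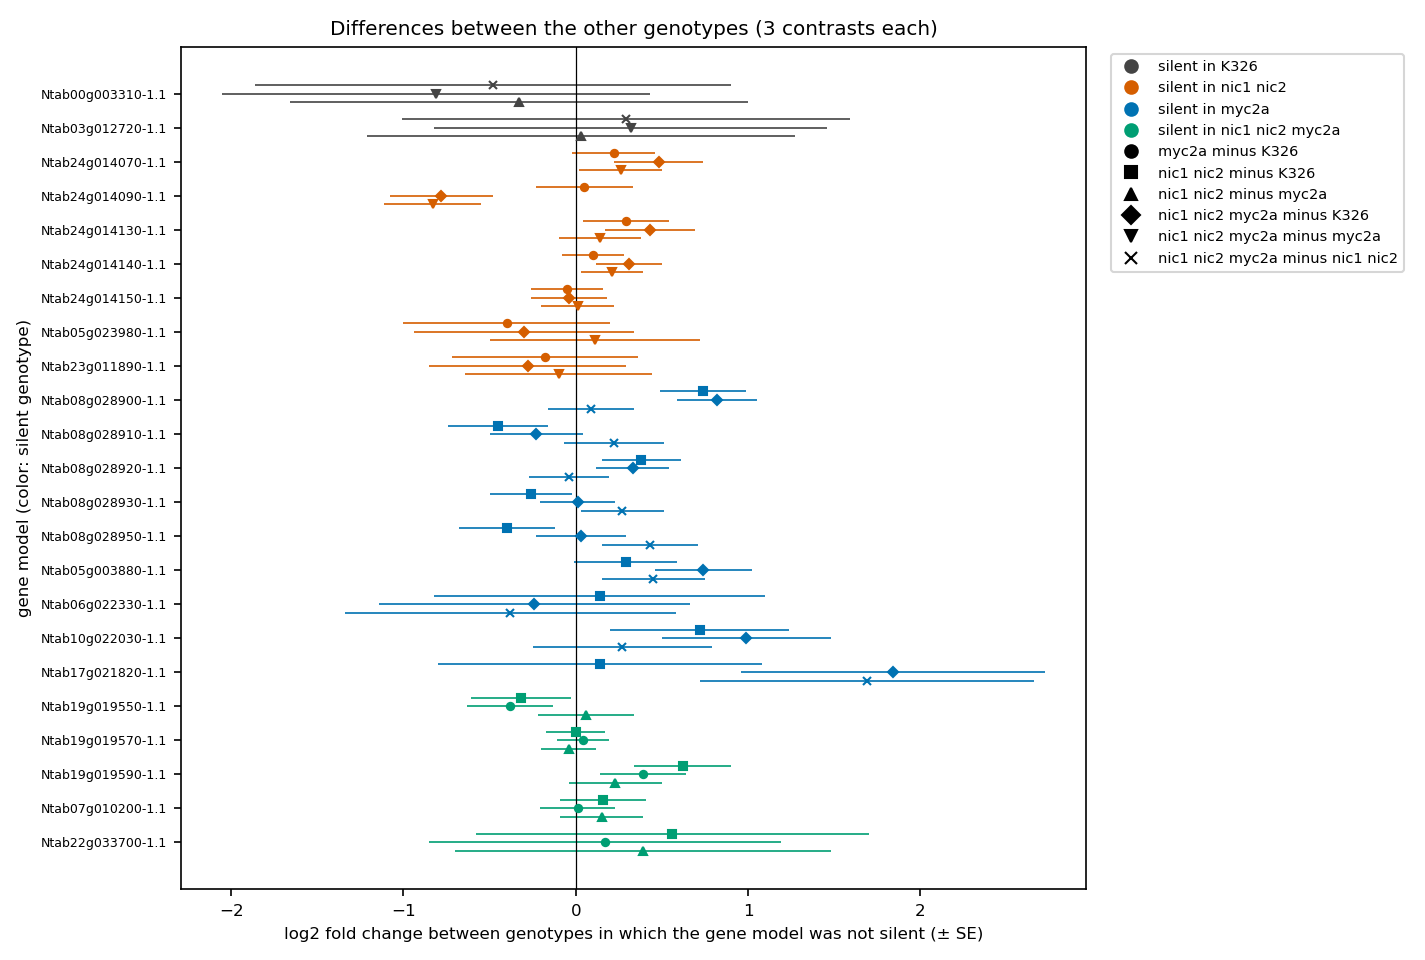
Log2 fold change with its SE (edgeR) between the genotypes in which each gene model was expressed, 3 comparisons per gene model; color gives the silent genotype and the marker the comparison. Most points lie near 0, and Ntab17g021820-1.1 has the widest difference, 1.84 between nic1 nic2 myc2a and K326.

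In the comparisons used for the choice, edgeR called 7 of 7 gene models lower in nic1 nic2 than in K326 (0.579% of all gene models were called lower), 8 of 9 in myc2a (0.137%) and 4 of 5 in nic1 nic2 myc2a (0.181%), and nothing is read from these counts. The exceptions were Ntab17g021820-1.1 and Ntab22g033700-1.1, whose K326 libraries were uneven. Near the silence threshold, the highest single values inside were 0.249 CPM (Ntab24g014130-1.1), 0.248 (Ntab08g028950-1.1) and 0.238 (Ntab05g003880-1.1), and the nearest gene models outside had 0.272 (Ntab16g017670-1.1 in nic1 nic2), 0.294 (Ntab14g001190-1.1 in K326) and 0.322 CPM (Ntab24g001690-1.1 in K326). Near the level threshold, the lowest means inside were 1.18 (Ntab23g011890-1.1), 1.32 (Ntab06g022330-1.1) and 1.38 CPM (Ntab17g021820-1.1), and those outside were 0.969 (Ntab24g014040-1.1), 0.957 (Ntab14g005600-1.1) and 0.886 CPM (Ntab05g018090-1.1).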

How the data were processed

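The deposited table held a raw count per gene model for each of 16 libraries. The authors' tools, per the submitters' processing notes, included HISAT2 2.1.0, with FastQC, SAMtools and bedtools also listed. The genome build, the annotation and how reads were counted are not given in the sources used here, so reads of near-identical copies may have been split or dropped. Values were checked to be whole numbers; 61.9% of low counts were even, so a count may not be a fragment. Columns were matched to libraries by name (those of nic1 nic2 myc2a by genotype letters and number), with 0 columns unused and 0 identical. Of the identifiers, 0 matched the RefSeq table, so no names or sequences are given.

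CPM used column totals. Tests used edgeR 4.0.16 in R 4.3.3 (filterByExpr, TMM, quasi-likelihood, 1 mean per genotype, all 16 libraries, Benjamini-Hochberg over 43009 gene models, threshold 0.05), with DESeq2 1.42.0 and limma 3.58.1 as alternatives. The procedure was tested on simulated data. Depending on the comparison, edgeR recovered 39 to 55% of simulated 2-fold changes and 86 to 96% of 4-fold changes. These changes were set only in gene models with an average log2 CPM over 1. The recovery does not cover weaker members such as Ntab23g011890-1.1 and Ntab06g022330-1.1, with means of 1.27 and 1.55 CPM in the other genotypes. The rule named every member where a genotype had 12 or fewer. Members and lists were chosen with earlier results of these data known; the extents of the stretches around runs, ended by the nearest gene model at 1 CPM or more elsewhere and 50% or more of its level, were added after the values were seen, and non-members inside them were named for that reason. Other alternatives were scaling, filter, thresholds, gaps, a replicate block and leaving out libraries.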

Additional observations from a re-analysis of the deposited data

Results flagged for a closer look

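Among 60 groups of 4 or 5 libraries checked (each gene model and each run sum in the genotypes where it was expressed), 7 had a library far from the others; chance alone flags about 1 in 20 groups. In nic1 nic2 myc2a replicate 2, Ntab00g003310-1.1 was at 11.0 CPM against 0.0298 to 1.66 CPM in the other 3 libraries, and Ntab03g012720-1.1 at 18.5 CPM against 0 to 2.02 CPM. Both are the gene models silent in K326. Ntab22g033700-1.1 stood apart in 2 genotypes, with 5.35 CPM in K326 replicate 3 (others 0.585 to 1.24) and 9.32 CPM in myc2a replicate 3 (others 0 to 1.18). Ntab10g022030-1.1 was at 3.71 CPM in K326 replicate 1 against 1.17 to 1.55 CPM. In runs, Ntab24g014140-1.1 was at 15.8 CPM in myc2a replicate 5 against 7.71 to 9.45 CPM, and Ntab08g028930-1.1 at 37.7 CPM in nic1 nic2 myc2a replicate 1 against 25.7 to 26.2 CPM.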

How the results depend on the processing

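The number of gene models silent in 1 genotype depended on the thresholds. With silence at 0.1 CPM the counts were 0 for K326, 4 for nic1 nic2, 4 for myc2a and 3 for nic1 nic2 myc2a; at 0.5 CPM they were 9 for K326 and 14 for myc2a. With a level threshold of 0.5 CPM they were 4 for K326, 17 for nic1 nic2 and 10 for nic1 nic2 myc2a. Leaving out each library gave 1 to 4 for K326 (4 without K326 replicate 2, 1 without nic1 nic2 replicate 2 or nic1 nic2 myc2a replicate 2), 7 to 12 for nic1 nic2 (12 without nic1 nic2 replicate 1), 8 to 11 for myc2a and 4 to 7 for nic1 nic2 myc2a; leaving out nic1 nic2 replicate 3 together with K326 replicate 2 gave 4 for K326. A library left out of the silent genotype loosens the rule by construction. DESeq2 called 2 of the gene models silent in myc2a between the other genotypes, and 2 and 5 flanking gene models in nic1 nic2 and nic1 nic2 myc2a; the cause was not tested. Leaving out each library, 0 members were called between the other genotypes, and flanking calls were 1 to 2 in nic1 nic2 (2 without nic1 nic2 myc2a replicate 2), 2 in myc2a and 3 in nic1 nic2 myc2a. The edgeR shares over all gene models were less stable (without single libraries, 0.0443 to 1.01% for myc2a minus K326, 0.163 to 2.64% for nic1 nic2 myc2a minus myc2a, 0.493 to 3.2% for nic1 nic2 minus myc2a and 0.293 to 0.679% for nic1 nic2 myc2a minus nic1 nic2). The other 243 counts of silent, run, flanking or called members, among them all run sizes at gaps of 50, 200 and 500 and the TMM-scaled counts, stayed within 1.5 times. With the replicate block, 0 members were called and the flanking calls were 1, 2 and 3 in nic1 nic2, myc2a and nic1 nic2 myc2a; of 21 pairs with the same number, 5 had correlated deviations over 0.1 (-0.206 to 0.178), and 3 of 16 libraries correlated best with their own number. The limit of 6 counts was chosen after seeing the data. At these depths, a count of 0 allows up to 0.0418 to 0.0933 CPM per library.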

Other observations

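The reverse pattern, silence in every genotype but 1 outside the excluded ranges, was seen in 5 gene models, 4 expressed in myc2a, 1 in nic1 nic2 and 0 in K326 or nic1 nic2 myc2a. Ntab04g028470-1.1 was at 3.94 ± 2.09 CPM in myc2a (SD, n = 5; 0.992 to 5.95) and at most 0.181 CPM in the other genotypes. Ntab17g006510-1.1 was at 4.36 ± 2.30 CPM in myc2a and had no counts in any other genotype. Ntab22g020250-1.1 was at 1.22 ± 0.61 CPM in myc2a and had no counts in nic1 nic2 or nic1 nic2 myc2a. Ntab09g019290-1.1 was uneven, with 0 to 8.50 CPM in myc2a, and Ntab22g017800-1.1 ranged from 0 to 82.2 CPM in the 3 nic1 nic2 libraries.

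Silence in both nic1 nic2 and nic1 nic2 myc2a, with 1 CPM or more in K326 and myc2a, was seen in 2 gene models outside the excluded ranges. The same count was found for the pair of K326 and myc2a (2), with 1 for K326 and nic1 nic2 myc2a and 0 for each other pair. K326 and myc2a are the genotypes whose labels do not name nic1 and nic2. Their pair is therefore the reverse of the first and gives no baseline for it. Ntab16g016700-1.1 had no counts in either genotype and 1.41 ± 0.0612 CPM in K326 (SD, n = 4). Ntab20g003580-1.1 was uneven, with 0 to 8.20 CPM in K326. The pairs with 0 include myc2a and nic1 nic2 myc2a, which both carry myc2a by their labels. Gene models inside the excluded ranges were not counted for any pair, so these numbers do not cover all gene models.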
